A study of Mus musculus with 12 samples.

Results

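The genes described here carry the transcriptional response to low oxygen and the conversion of glucose to lactate, 40 genes in all, chosen by gene name. They were read from 12 Illumina mouse WG-6 v2 arrays, 5 of them with RNA of primary tumors, 5 with RNA of local recurrences and 2 with RNA of SCC-7 cells. SCC-7 is a murine squamous cell carcinoma line. It was grown in culture, injected into the floor of the mouth of immunodeficient BALB/c-nu mice to give the primary tumors, and regrew as recurrent tumors in the same 5 animals after microsurgical removal. No drug or engineered allele separates the groups, all tumors derive from 1 cell line, the nude host is athymic and so poor in T cells, and the age of the animals is not given in the sources used here. Nothing states that the 2 SCC-7 arrays came from separate cultures, so their spread may be technical.

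Of the 40 genes, 37 had a probe named in the platform annotation, 72 probes together. A probe was kept when it was brighter than the negative control probes, at a one-sided p under 0.01, on at least 2 arrays. This left 47 probes and 31 genes, out of 10346 named genes on the whole array, and 25 of the 31 were detected on all 12 arrays. Hk2, Gpi1 and Eno1 were not named by the annotation. Adm, Bnip3, Ero1a, Higd1a, Mxi1 and Pfkfb3 had a probe that was detected on at most 1 array. Levels are given as log2 of the normalized probe intensity, and the brightest kept probe stands for each gene. A step of 1 on this scale is a 2-fold difference, and levels of different genes are not comparable because probes differ in brightness.

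In cells with enough oxygen, the hydroxylases encoded by Egln1 and Egln3 mark the alpha subunits of the hypoxia inducible factors (HIF, here Hif1a and Epas1) for destruction. When oxygen falls, the subunits persist, bind the HRE motif in DNA and raise genes for glucose uptake, glycolysis, lactate export, acid handling and vessel growth. Several of these genes, among them Egln3 itself, Vegfa, Ndrg1, Ddit4 and Car9, serve as readouts of the response in solid tumors, and tumor cells also use glycolysis at normal oxygen.

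Promoter sequences are shown for genes to which the results below return, so that the motif can be seen. RefSeq promoter windows of assembly GRCm38.p6, which reach from 250 bases before to 50 after the annotated start, were on hand for 36 of the 40 genes. The core letters searched were ACGTG and GCGTG, on both strands. Capitals mark them, or their reverse complement where the match lies on the opposite strand.
Pfkfb4, chr9:108991652-108991951, plus strand: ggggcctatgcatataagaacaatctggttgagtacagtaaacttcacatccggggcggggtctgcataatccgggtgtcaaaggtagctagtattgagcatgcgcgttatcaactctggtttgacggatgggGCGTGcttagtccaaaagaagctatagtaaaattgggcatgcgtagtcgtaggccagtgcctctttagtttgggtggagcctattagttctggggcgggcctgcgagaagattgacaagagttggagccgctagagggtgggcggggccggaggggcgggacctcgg
Egln3, chr12:54203825-54204124, minus strand: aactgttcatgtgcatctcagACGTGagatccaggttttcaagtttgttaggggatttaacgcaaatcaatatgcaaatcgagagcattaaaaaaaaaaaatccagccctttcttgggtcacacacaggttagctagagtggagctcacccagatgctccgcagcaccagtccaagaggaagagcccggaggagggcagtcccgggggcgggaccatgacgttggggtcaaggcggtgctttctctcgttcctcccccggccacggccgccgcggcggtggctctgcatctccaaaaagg
Ddit4, chr10:59951721-59952020, minus strand: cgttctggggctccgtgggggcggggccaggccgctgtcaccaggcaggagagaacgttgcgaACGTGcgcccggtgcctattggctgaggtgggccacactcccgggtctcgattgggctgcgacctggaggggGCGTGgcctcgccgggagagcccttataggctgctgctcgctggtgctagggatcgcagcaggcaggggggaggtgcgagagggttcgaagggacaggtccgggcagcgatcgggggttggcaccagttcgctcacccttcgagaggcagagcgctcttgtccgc
Pgk1, chrX:106186850-106187149, plus strand: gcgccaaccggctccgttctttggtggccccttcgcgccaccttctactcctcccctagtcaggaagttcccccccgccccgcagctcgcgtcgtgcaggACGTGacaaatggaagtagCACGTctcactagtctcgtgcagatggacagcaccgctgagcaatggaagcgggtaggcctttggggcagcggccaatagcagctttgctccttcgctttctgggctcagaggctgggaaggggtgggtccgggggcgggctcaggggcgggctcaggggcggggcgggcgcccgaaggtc
Car9, chr4:43506776-43507075, plus strand: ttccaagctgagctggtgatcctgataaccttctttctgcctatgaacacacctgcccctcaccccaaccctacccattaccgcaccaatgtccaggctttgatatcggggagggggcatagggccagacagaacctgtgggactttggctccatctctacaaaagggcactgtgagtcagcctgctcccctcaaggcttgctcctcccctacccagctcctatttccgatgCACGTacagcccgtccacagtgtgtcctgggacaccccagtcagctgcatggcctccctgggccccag

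In these windows Ddit4 and Pgk1 held 2 matches each, and Pfkfb4, Egln3 and Car9 held 1. The ACGTG of Car9 lay 18 bases before the start, on the minus strand. Over all members 32 of 36, or 88.9%, had a match in at least 1 window, against 46.7% of all genes in the table. By window the shares were 76.5% of 51 and 43.8% of 32851. Member windows were also richer in G and C, with a median of 63.3% against 52.7%, and the part of this in the count of matches was not tested. Car12, Eno2, Gpi1 and Tpi1 had no match, which says only that these letters are not in these windows. Of the 2 Vegfa windows, 1 held 2 matches and the other none. A match is a description of the letters and not a sign of binding.

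Arrays differed in other cell types. Macrophage markers averaged 8.15 to 10.4 in the tumors and 5.81 to 5.9 in SCC-7 cells, and endothelial markers 7.08 to 8.33 against 4.84 to 4.91. Primary tumor 3 stood apart by its lymphocyte markers, 10.49 against 5.26 to 6.79 in the other tumors, and its neutrophil markers, 8.52. Its T cell genes Cd3d, Cd3e and Cd2 read 10.68, 9.56 and 10.33, against at most 6.26, 5.88 and 6.04 in the other tumors, which goes against what a nude host would hold. Salivary markers ran from 13.61 in primary tumor 1 to 5.41 in its recurrence, with 8.05 to 11.88 in the other tumors. They averaged 7.58 and 7.6 in SCC-7 cells, so they were not absent from the line. Of the 9 measured, 5 were detected on both SCC-7 arrays, namely Aqp5, Bpifa2, Dcpp1, Prol1 and Smr3a. Aqp5 read 13.27 and 13.26 there, above every tumor. Of 12 squamous markers 5 had a kept probe. Krt14, Krt17 and Trp63 were detected in both SCC-7 arrays, whereas Krt5 and Cdh1 were not, so by these probes the epithelial label of the line rested on the former. The paper reported E-cadherin protein, the product of Cdh1, in these cells, at a lower level after Mybbp1a silencing. The 5 markers averaged 5.76 and 5.8 in SCC-7 cells and 4.56 to 7.95 in the tumors. None of them was detected in recurrent tumor 1 or in primary tumors 4 and 5. Detected probes ranged from 15043 to 17083 in tumors and from 13711 to 13868 in SCC-7 cells. Because these are bulk samples, fewer cells of a type and less RNA per cell cannot be told apart. The part of these differences in the results below was not tested.

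**Figure D1:**
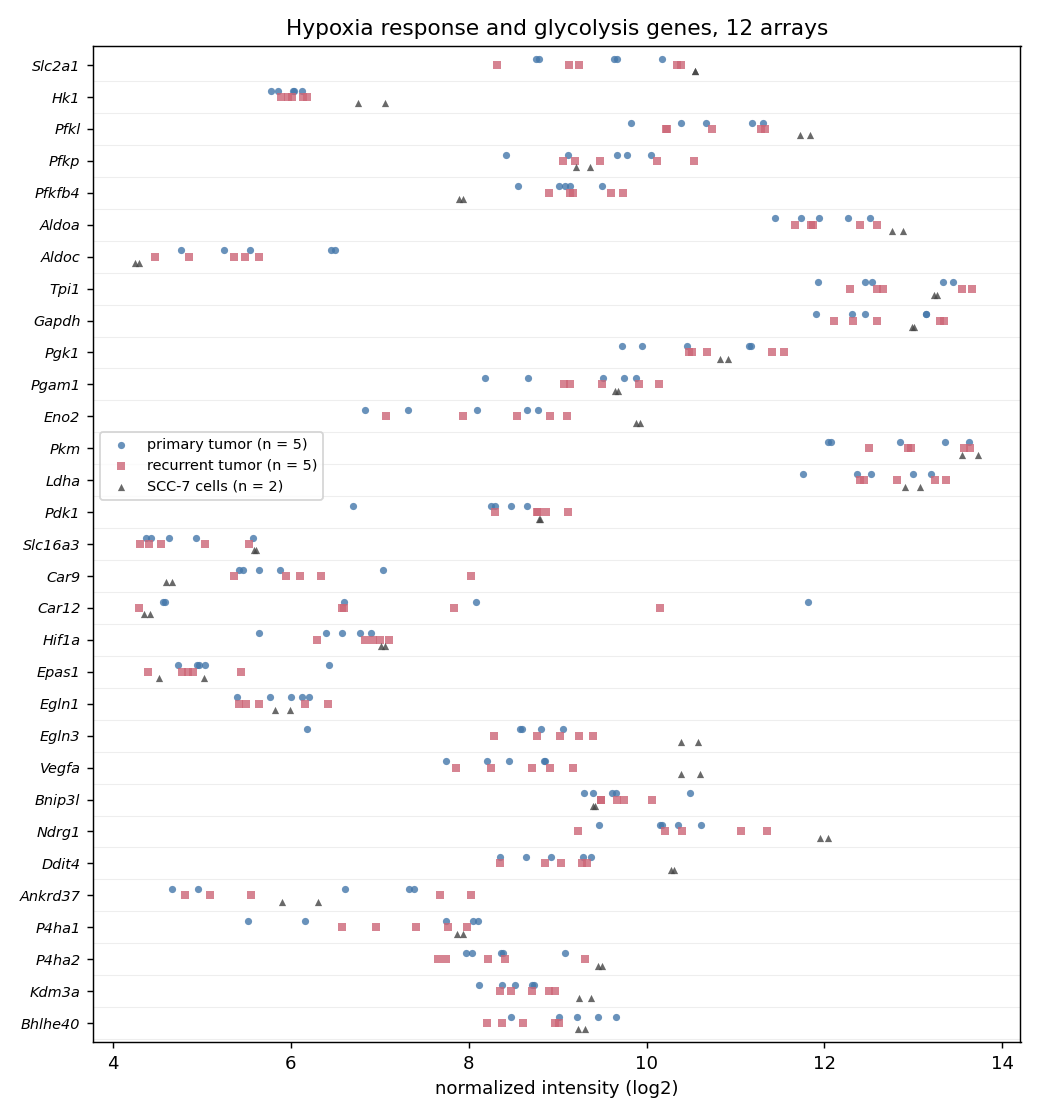
Normalized intensity (log2, horizontal axis) of the 31 measured genes (rows) in primary tumors (circles), recurrent tumors (squares) and SCC-7 cells (triangles), 1 point per array. Vegfa, Egln3, Ndrg1, Ddit4 and Eno2 lie to the left of both SCC-7 arrays in all 10 tumors, Pfkfb4 to the right, and primary and recurrent tumors overlap in every row.

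Each tumor group was first set against the cultured line from which it grew. Primary tumors had lower levels of Vegfa, Egln3, Eno2, Ndrg1 and Ddit4 and a higher level of Pfkfb4. Recurrent tumors had lower Vegfa, Ndrg1 and Ddit4 and again higher Pfkfb4. A gene was called when it differed at least 2-fold and limma's fit of the 3 groups, adjusted over all kept probes by Benjamini-Hochberg, gave a p under 0.05. In primary tumors 6 of 31 genes were called, 19.4%, where the background over all named genes was 13.4%. In the lower direction the share was 16.1% against a background of 5.13%, and 1 gene was higher, where the background was 8.27%. In recurrent tumors 4 were called, 12.9% against a background of 13.0%. Of these, 3 were lower, 9.68% against 4.67%, and 1 was higher, where the background was 8.32%. The median log2 difference from SCC-7 was -0.58 over the members and -0.09 over all named genes in primary tumors, and -0.29 and -0.07 in recurrent tumors. Both comparisons used the same 2 SCC-7 arrays, so they are not independent of each other. Over all kept probes, 1231 calls ran upward and 1057 downward in primary tumors, and 1269 and 930 in recurrent tumors. With arrays scaled to equal medians these became 1362 and 367, and 1490 and 311, while the median of all probes moved from -0.15 to 0.08 and from -0.11 to 0.13. Under that scaling 1 member was called upward and 3 downward in primary tumors, and 1 and 2 in recurrent tumors.

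Vegfa, the growth factor that draws new vessels, showed the clearest difference. SCC-7 cells read 10.39 and 10.6. Primary tumors 1 to 5 read 8.86, 8.45, 7.74, 8.85 and 8.2, and recurrent tumors 1 to 5 read 8.91, 8.25, 7.86, 8.71 and 9.17. All 10 tumors thus lay below both SCC-7 arrays, with the lowest values in the pair of animal 3. The level was 4.21-fold lower in primary tumors (log2 difference -2.07 ± 0.37 SE, adjusted p = 0.00322) and 3.77-fold lower in recurrent tumors (-1.91 ± 0.37 SE, adjusted p = 0.00527). A second kept Vegfa probe gave -2.4 and -2.04 and was called in both comparisons.

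Egln3, the HIF hydroxylase that hypoxia induces, read 10.39 and 10.58 in SCC-7 cells. Primary tumors 1 to 5 read 8.58, 8.81, 6.18, 8.6 and 9.06, and recurrent tumors 8.77, 9.03, 8.28, 9.4 and 9.24. No tumor reached the SCC-7 level, and primary tumor 3, the array with high lymphocyte markers, was far below the other tumors. The primary tumors were 4.72-fold lower (-2.24 ± 0.63 SE, adjusted p = 0.03). The recurrent tumors differed by -1.54 ± 0.63 SE and did not pass (adjusted p = 0.109), although a fit of these 2 groups alone, with a smaller spread, gave an adjusted p of 0.00716. In the same kind of fit the primary tumors lost their call (adjusted p = 0.103), as they did without the filter on dim probes (0.0674). Egln1, the hydroxylase with the wider expression, lay between 5.39 and 6.42 in all tumors and at 5.82 and 5.99 in SCC-7 cells. Hif1a, the oxygen regulated subunit, was 7.01 and 7.06 in SCC-7 cells, 5.64 to 6.9 in primary tumors (median 6.57) and 6.29 to 7.1 in recurrent tumors (median 6.92). It did not pass in either comparison (-0.58 ± 0.32 SE, adjusted p = 0.218, and -0.21 ± 0.32 SE, adjusted p = 0.681). Epas1, the second alpha subunit, was above background on 2 arrays only, primary tumor 3 at 6.43 and recurrent tumor 2 at 5.44.

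Ndrg1, which restrains growth and is induced by hypoxia, read 11.95 and 12.04 in SCC-7 cells. Primary tumors 1 to 5 read 9.46, 10.15, 10.35, 10.17 and 10.61, and recurrent tumors 10.4, 10.21, 9.23, 11.06 and 11.35. All tumors lay below SCC-7 cells, and the recurrences of animals 4 and 5 came nearest. The gene was 3.59-fold lower in primary tumors (-1.85 ± 0.47 SE, adjusted p = 0.0214) and 2.92-fold lower in recurrent tumors (-1.54 ± 0.47 SE, adjusted p = 0.0432). The latter call sat at the threshold and was lost without recurrent tumor 1, 2 or 3 (adjusted p = 0.0667, 0.0732 and 0.0501). A second Ndrg1 probe gave -1.8 (adjusted p = 0.0195) and -1.38 (adjusted p = 0.0546).

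Ddit4, an inhibitor of the growth kinase mTORC1, read 10.31 and 10.27 in SCC-7 cells. In primary tumors 1 to 5 it read 9.28, 8.64, 8.35, 9.38 and 8.93 and in recurrent tumors 8.86, 9.33, 9.04, 8.35 and 9.27. These 2 sets overlapped fully and both lay below the cells. The fall was 2.6-fold in primary tumors (-1.38 ± 0.32 SE, adjusted p = 0.013) and 2.49-fold in recurrent tumors (-1.32 ± 0.32 SE, adjusted p = 0.0152). Bnip3l, a mitophagy receptor of the same role group, read 9.42 and 9.4 in SCC-7 cells and 9.3 to 10.49 in tumors and was not called. Ankrd37, a small HIF target, differed widely among tumors, from 4.66 to 8.02, around 6.31 and 5.9 in SCC-7 cells.

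Pfkfb4 makes and removes fructose 2,6-bisphosphate, the activator of phosphofructokinase, and was the member called higher. SCC-7 cells read 7.89 and 7.94. Primary tumors 1 to 5 read 9.02, 9.5, 8.55, 9.14 and 9.08, and recurrent tumors 9.74, 8.9, 9.6, 9.17 and 9.14. Every tumor was above both SCC-7 arrays. The level was 2.21-fold higher in primary tumors (1.14 ± 0.27 SE, adjusted p = 0.0158) and 2.63-fold higher in recurrent tumors (1.39 ± 0.27 SE, adjusted p = 0.00546). Without background correction the first value was 0.97, under 2-fold, at an adjusted p of 0.0159.

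Among the remaining genes of glucose entry, Slc2a1, the main glucose transporter of tumor cells, read 10.54 on both SCC-7 arrays, 8.76 to 10.17 in primary tumors (median 9.63) and 8.32 to 10.39 in recurrent tumors (median 9.24). The ranges did not overlap with the cells, but the differences did not pass (-1.14 ± 0.54 SE, adjusted p = 0.159, and -1.06 ± 0.54 SE, adjusted p = 0.198). Hk1, the hexokinase of most tissues, was 6.75 and 7.06 in SCC-7 cells and 5.78 to 6.18 in tumors. It passed the adjusted p in both comparisons but stayed under 2-fold (-0.94 ± 0.17 SE, adjusted p = 0.00352, and -0.87 ± 0.17 SE, adjusted p = 0.00573). Kdm3a, a histone demethylase induced by HIF, likewise passed without the fold in primary tumors (-0.82 ± 0.23 SE, adjusted p = 0.0293), and its 2 other kept probes gave -1.03 and -1.11 there and were called. Altogether 12 of the 31 members were lower in all 10 tumors than on either SCC-7 array, 38.7% against a background of 23.0%, although the kept probe of 1 of the 12, Slc16a3, was not above background in the cells. Another 3 were higher (Pfkfb4, Aldoc and Car9), where the background was 17.4%. Aldoc and Car9 were not above background in the cells and were kept only through the tumors, and Aldoc was also below background in 4 of the tumors, so their order against the cells says little.

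**Figure D2:**
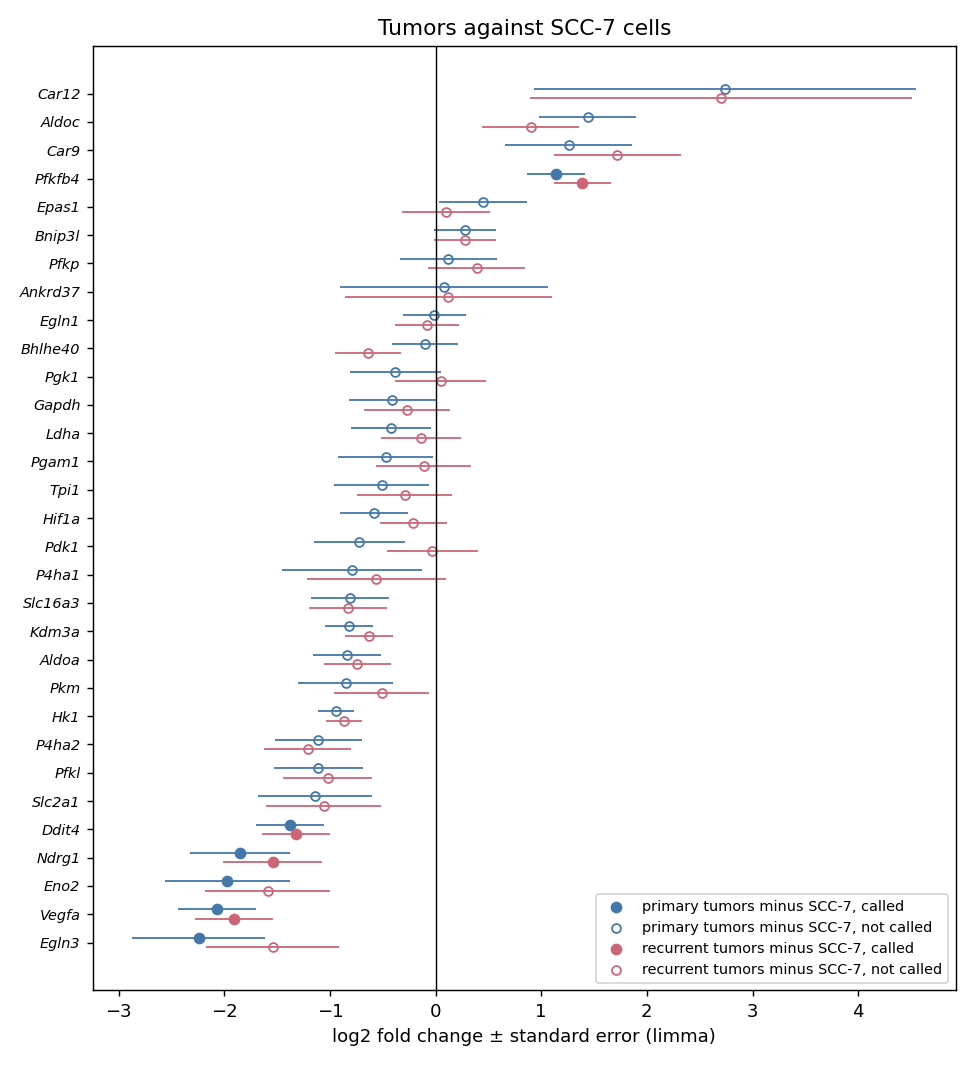
Log2 fold change against SCC-7 cells (horizontal axis, limma estimate ± standard error) for each gene (rows) in primary and recurrent tumors. Filled points passed an adjusted p under 0.05 and 2-fold, and these are Pfkfb4 to the right of 0 and Ddit4, Ndrg1, Eno2, Vegfa and Egln3 to the left, Eno2 and Egln3 in primary tumors only.

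Of the enzymes from aldolase to pyruvate kinase 8 were measured, with a median difference from SCC-7 cells of -0.49 in primary and -0.28 in recurrent tumors. Eno2, the enolase isozyme of neurons that tumors also express, was the single called gene. It read 9.88 and 9.93 in SCC-7 cells, 7.32, 8.09, 6.83, 8.78 and 8.65 in primary tumors 1 to 5 and 8.54, 7.93, 7.07, 9.11 and 8.91 in recurrent tumors. All tumors were lower, those of animal 3 the most. The primary tumors were 3.92-fold lower (-1.97 ± 0.59 SE, adjusted p = 0.0404), and the recurrent tumors differed by -1.59 ± 0.59 SE (adjusted p = 0.0839). The primary call was lost without primary tumor 1 or 2 (adjusted p = 0.0671 and 0.0559), in a fit of the 2 groups alone (0.0691) and without the filter on dim probes (0.0866). In the fit of the 2 groups alone the recurrent tumors were called (adjusted p = 0.0458). Ldha, which turns pyruvate into lactate, read 13.07 and 12.91 in SCC-7 cells, 11.76 to 13.2 in primary tumors (median 12.52) and 12.4 to 13.37 in recurrent tumors (median 12.81), and neither difference passed (-0.42 ± 0.38 SE, adjusted p = 0.446, and -0.14 ± 0.38 SE, adjusted p = 0.828). For Pgk1, which makes the first ATP of the pathway, the differences were -0.38 ± 0.43 SE (adjusted p = 0.547) and 0.05 ± 0.43 SE (adjusted p = 0.943). Aldoa, Tpi1, Gapdh, Pgam1 and Pkm had differences of -0.85 to -0.11, none of which passed. Aldoc, the brain aldolase, was not above background in SCC-7 cells and averaged 5.7 in primary tumors, at least 1.01-fold higher (adjusted p = 0.0501).

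Calls against SCC-7 rested on having 2 arrays of the cells. With 1 of them left out, the lone array being assumed to vary like the tumors, the calls in primary tumors dropped from 6 to 2 without the first and 0 without the second, and in recurrent tumors from 4 to 1 and 0. The loss was general, since over all kept probes the upward and downward calls became 532 and 253 or 533 and 253 in primary tumors, and 562 and 210 or 560 and 217 in recurrent tumors. The fitted differences themselves moved little, for Vegfa to -2.18 and -1.97 in primary tumors and to -2.02 and -1.81 in recurrent tumors.

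The study's own question was what distinguishes a recurrence from the primary tumor of the same animal. Within the hypoxia and glycolysis genes, 0 of 31 were called in limma's fit with the animal as a block, where the background was 0.0% of named genes, and no member had an adjusted p below 0.933. Before adjustment 2 genes, Pgk1 and Pdk1, lay under 0.05, 3.27% being the share among all named genes, and the unpaired t-test of the methods gave 0 at that level. The median log2 ratio of recurrent over primary tumor was 0.16 over the members and 0.02 over all genes, with 24 positive and 7 negative. In at least 4 of 5 pairs 16 members were higher in the recurrence, 51.6% against 23.8% of all genes. In all 5 pairs 4 members were higher, 12.9% against 4.33%, and 1 was lower, against 1.9%. An exact two-sided sign-flip test over 5 pairs cannot give a p under 0.0625, which was the value for these 5 genes. The members share samples and move together, so their counts are not independent.

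By their brightest probe, those higher in every recurrence were Egln3, Pdk1, Pgk1 and Tpi1. Pdk1 is a kinase that keeps pyruvate from being oxidized in the mitochondria. It read 8.29, 8.25, 6.7, 8.66 and 8.47 in primary tumors 1 to 5 and 8.77, 8.87, 8.3, 8.78 and 9.12 in recurrent tumors. The difference was greatest in animal 3, whose primary tumor was the low one. Its mean log2 ratio was 0.69 ± 0.23 SE (adjusted p = 0.933). Pgk1 had ratios of 0.76, 0.22, 0.56, 0.26 and 0.37 in pairs 1 to 5 (mean 0.43 ± 0.15 SE, adjusted p = 0.933). Its primary tumors spanned 9.72 to 11.17 and its recurrences 10.48 to 11.54, so the groups overlapped although each pair moved the same way. Egln3 had ratios of 0.19, 0.21, 2.1, 0.8 and 0.19 (mean 0.7 ± 0.31 SE, adjusted p = 0.933), and pair 3 carried much of the mean, which was 0.35 without it. Tpi1 ratios ran only from 0.13 to 0.36. Another kept Tpi1 probe was lower in the recurrence of pair 2, from 10.86 to 10.53, while its dimmest kept probe was higher in every recurrence. Bhlhe40, a circadian repressor that hypoxia induces, was lower in every recurrence, with ratios of -0.84, -0.11, -1.46, -0.01 and -0.25 (mean -0.53 ± 0.25 SE, adjusted p = 0.933), and a mean of -0.3 without pair 3.

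**Figure D3:**
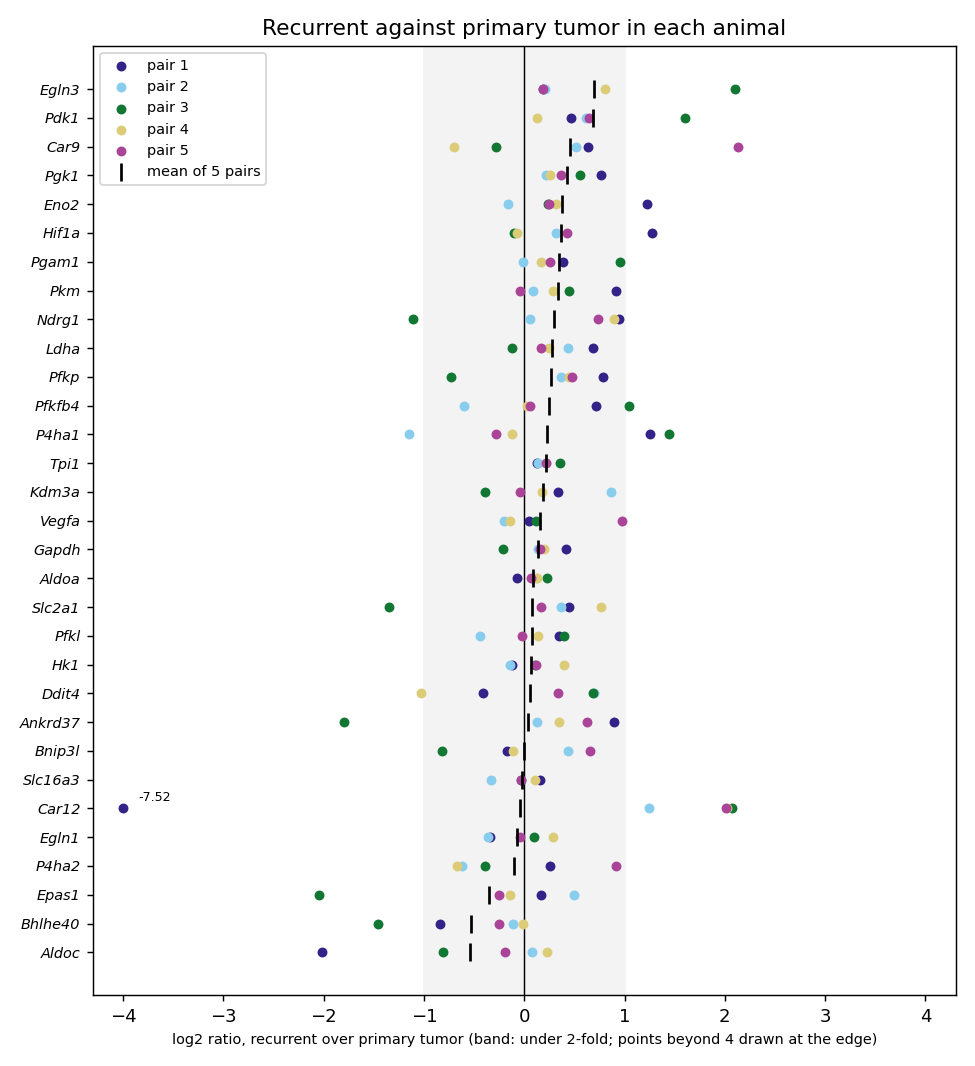
Log2 ratio of recurrent over primary tumor (horizontal axis) in each of the 5 animals (colored points) with their mean (black bar), 1 gene per row. Most points lie inside the shaded band of under 2-fold, and 4 genes have all points above 0. The Car12 ratio of pair 1, -7.52, whose recurrence was not above background, is drawn at the edge.

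Most ratios were small. In no pair did 16 of the 31 members reach 2-fold. The other genes with large mean ratios were Aldoc (-0.54 ± 0.34 SE), Car9 (0.46 ± 0.4 SE), Eno2 (0.38 ± 0.22 SE), Hif1a (0.37 ± 0.23 SE), Pgam1 (0.35 ± 0.18 SE) and Epas1 (-0.35 ± 0.37 SE), each at an adjusted p of 0.933. A single pair carried much of each. Without pair 1 the mean was -0.17 for Aldoc, 0.16 for Eno2 and 0.15 for Hif1a, without pair 3 it was 0.2 for Pgam1 and 0.07 for Epas1, and without pair 5 it was 0.05 for Car9. Slc2a1 (0.08 ± 0.31 SE), Vegfa (0.16 ± 0.21 SE) and Ldha (0.28 ± 0.17 SE) did not pass either (adjusted p = 0.98, 0.943 and 0.933).

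The carbonic anhydrases Car9 and Car12 are surface enzymes that handle the acid of glycolytic cells, and Car12 had the widest range over the 10 tumors of all 31 members. Car12 read 11.81, 6.6, 8.08, 4.56 and 4.59 in primary tumors 1 to 5 and 4.29, 7.83, 10.15, 6.58 and 6.6 in recurrent tumors, against 4.42 and 4.35 in SCC-7 cells. The tumors spanned a 183-fold range, and the gene was detected in 3 primary and 4 recurrent tumors and on neither SCC-7 array. It was higher in the recurrence by 1.24, 2.07, 2.02 and 2.01 in pairs 2 to 5 and lower by 7.52 in pair 1. The recurrence of animal 1 and the primary tumors of animals 4 and 5 were not above background. The range, the ratios of pairs 1, 4 and 5 and the means below therefore rest partly on background readings and are not exact folds. By its brightest probe, Car12 was the single member at least 2-fold higher in at least 3 pairs, where the background was 1.26%. For lower members the count was 0, where the background was 0.358%. Over 5 pairs the mean was -0.04 ± 1.45 SE (adjusted p = 0.998), and without pair 1 it was 1.83 ± 0.21 SE (adjusted p = 0.199). A second Car12 probe moved in the same direction in each pair but less. It went from 10.27 to 4.46 in pair 1, 5.21 to 6.3 in pair 2 and 6.67 to 8.38 in pair 3. In pairs 4 and 5 it went from 4.36 to 5.06 and from 4.68 to 5.39, under 2-fold. This probe was not above background in either tumor of pair 4, and it did not meet the rule of 3 pairs. The mean of the salivary markers went from 13.61 to 5.41 in pair 1, 10.2 to 11.76 in pair 2, 11.77 to 11.88 in pair 3, 8.77 to 10.55 in pair 4 and 8.05 to 11.26 in pair 5. In pair 3 it hardly moved while Car12 was higher by 2.07. There 3 of the 9 markers were lower, Amy1 from 11.64 to 5.85, Smr3a from 14.14 to 10.39 and Bpifa2 from 14.67 to 14.23. The other markers were higher, among them Smgc from 10.23 to 13.58 and Egf from 5.78 to 8.17. Aqp5, which was brighter still in SCC-7 cells, went from 9.58 to 11.65. Klk1 rose from 11.79 to 13.66, Dcpp1 from 13.75 to 14.52 and Prol1 from 14.4 to 14.88. The part of the salivary markers in the Car12 values was not tested.

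Car9, a HIF target used to mark hypoxic tumor areas, was by its brightest probe above background in all 10 tumors and on neither SCC-7 array. Primary tumors 1 to 5 read 5.46, 5.42, 5.64, 7.04 and 5.88, recurrent tumors 6.1, 5.94, 5.36, 6.34 and 8.02, and SCC-7 cells 4.66 and 4.6. The highest tumors were the recurrence of animal 5 and the primary tumor of animal 4. Because SCC-7 values were not above background, the difference is a bound, set against the lowest signal detected on those arrays, of at least 1.15-fold in primary and at least 1.58-fold in recurrent tumors (adjusted p = 0.163 and 0.0696). Computed the same way, Car12 was at least 2.7-fold and at least 2.63-fold higher in the tumor means, without passing (adjusted p = 0.301 and 0.324). Another kept Car9 probe was above background in 1 primary and 3 recurrent tumors only. Its differences from SCC-7 cells were 0.27 and 0.57 (limma, adjusted p = 0.721 and 0.463). The remaining Car9 probe, not kept, was above background on 1 array. The kept probe of Slc16a3, the lactate exporter, was above background in both tumors of animal 5, at 5.57 and 5.53, and on no other array, while a probe that was not kept was above background on 1 SCC-7 array, at 5.84.

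The levels of the glycolytic genes varied by animal. This pattern, and the genes named for it, were chosen with the values in view. For 13 genes of glucose entry and glycolysis detected on all arrays, the mean level over both tumors was 10.15, 10.33, 9.99, 10.92 and 11.03 in animals 1 to 5, and 10.96 and 10.97 on the SCC-7 arrays. Of these genes 6 peaked in the recurrence of animal 4, 6 in that of animal 5 and 1 in that of animal 1. Over all 31 members the highest tumor came from animal 5 for 13 and from animal 4 for 10, and the lowest from animal 3 for 19, 13 of them in its primary tumor. The SD over the 10 tumors had a median of 0.55 among members and 0.38 among all genes.

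Tpi1, the triose phosphate isomerase, read 12.45, 12.53, 11.93, 13.33 and 13.44 in primary tumors 1 to 5 and 12.59, 12.66, 12.29, 13.55 and 13.66 in recurrent tumors, with 13.23 and 13.26 in SCC-7 cells. By this brightest probe both tumors of animals 4 and 5 were above the cells and both tumors of the other animals below them. Gapdh, the dehydrogenase of the next step, showed this order too, with 11.91, 12.45, 12.31, 13.14 and 13.14 in primary and 12.32, 12.59, 12.11, 13.34 and 13.3 in recurrent tumors around 12.98 and 13.01 in the cells. Pgk1 followed with 11.15 to 11.54 in the tumors of animals 4 and 5 and 9.72 to 10.68 in the rest, and the cells at 10.91 and 10.83. For Pkm, the last enzyme before pyruvate, the tumors of animals 4 and 5 read 13.35 to 13.64 and the others 12.04 to 12.97. Gapdh is widely used as a reference transcript, and in these tumors it spanned a 2.71-fold range. Another Tpi1 probe read 11.47 to 11.82 in the tumors of animals 4 and 5 and 10.31 to 10.87 in the rest. On the SCC-7 arrays this probe read 11.49 and 11.76, so the tumors of animals 4 and 5 lay around the cells.

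An F test of the animal term in the same limma fit, added after the data were seen, gave an unadjusted p under 0.05 for 13 of 31 members, 41.9%, where the background among all genes was 7.41%. After adjustment over all probes 0 members passed, where the background was 0.0%. The lowest value among members was that of Tpi1 (limma, adjusted p = 0.503). The 13 were Pfkl, Pfkp, Aldoa, Tpi1, Gapdh, Pgk1, Pgam1, Eno2, Pkm and Ldha of glycolysis, with Slc16a3, Egln3 and Ankrd37. The Slc16a3 probe was kept only through the tumors of animal 5, so its place among the 13 says little. With 1 animal left out the count ran from 10 (without animal 5) to 15 (without animal 1). Vegfa, Ddit4, Ndrg1 and Pfkfb4, the genes called in both comparisons with SCC-7 cells, were not among them. Both tumors of an animal also share the host. Whether they shared handling is not stated in the sources used here, so host and handling cannot be told apart. Primary tumor 3, where 13 members were lowest, carried the lymphocyte markers named above, and its macrophage markers were the lowest of the tumors at 8.15.

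**Figure D4:**
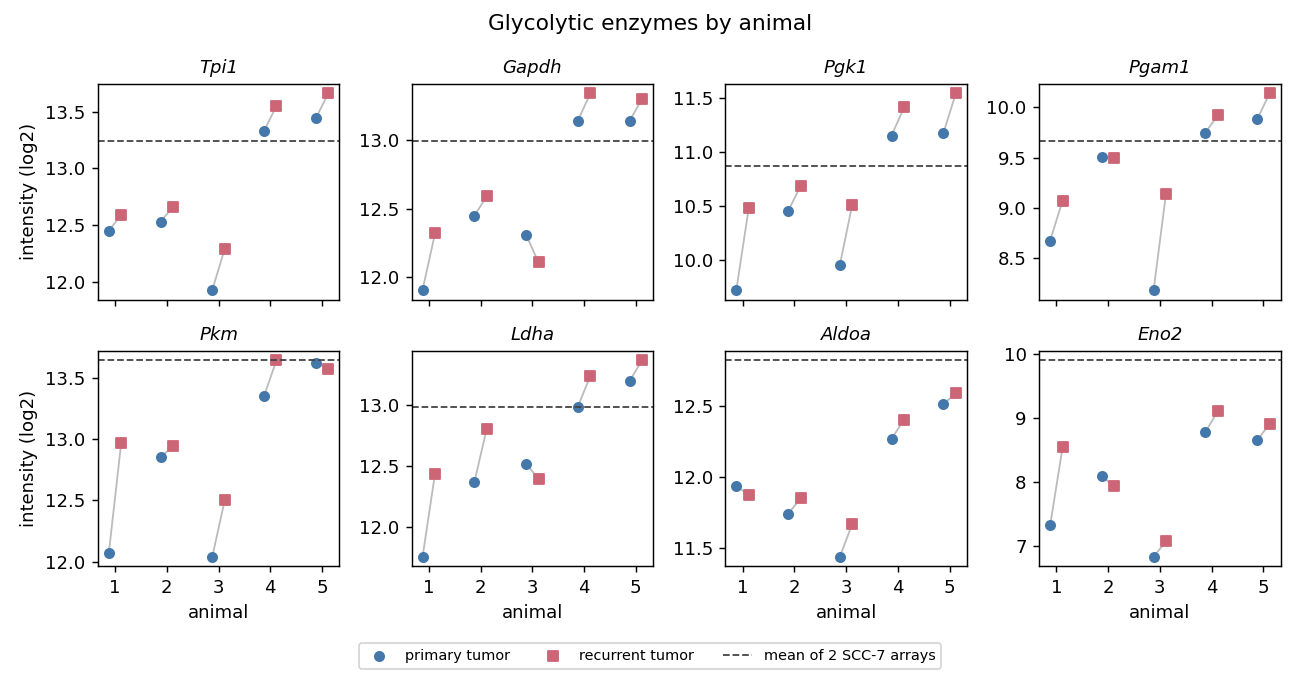
Normalized intensity (log2, vertical axes, which do not start at 0) of 8 glycolytic enzymes in the primary (circles) and recurrent (squares) tumor of each animal, with the mean of the 2 SCC-7 arrays as a dashed line. Animals 4 and 5 are the highest in each panel, while Aldoa and Eno2 stay below the dashed line in every tumor.

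Other genes of the same pathways, taken from lists written for this purpose, differed from SCC-7 cells in part in the opposite direction, and 0 of them were called between recurrent and primary tumors in limma's fit, with 1 at an unadjusted p under 0.05. Of 17 other isozymes and transporters 10 were measured. Hk3, the hexokinase of myeloid cells, read 7.74 to 9.15 in primary and 8.31 to 9.82 in recurrent tumors and was not above background in SCC-7 cells, a difference of at least 7.42-fold and at least 9.77-fold (adjusted p = 0.00012 and 5.3e-05). Slc2a3, a high affinity glucose transporter of neurons and leukocytes, was not above background in the cells either. It was at least 2.72-fold and at least 2.22-fold higher (limma, adjusted p = 0.0114 and 0.019). Both Hk3 and Slc2a3 were kept only through the tumors. Eno3, the muscle enolase, was lower in primary tumors (-1.83 ± 0.51 SE, adjusted p = 0.0302). Macrophage markers were higher in every tumor than in the cells, as given above, and their part in the Hk3 and Slc2a3 values was not tested.

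Of 13 HIF partners and regulators 11 were measured. Eloc, a subunit of the ligase that degrades HIF, was higher in primary (1.28 ± 0.28 SE, adjusted p = 0.0106) and recurrent tumors (1.6 ± 0.28 SE, adjusted p = 0.00292). The other measured subunits of this ligase, Vhl, Cul2, Elob and Rbx1, did not rise, with differences of -0.67 to -0.02, and were not called. Cited2, which competes with HIF for its coactivator, was lower in both tumor groups (-1.64 ± 0.27 SE, adjusted p = 0.00201, and -1.61 ± 0.27 SE, adjusted p = 0.00221). Of 29 other hypoxia targets 23 were measured, of which 4 were called upward and 1 downward in primary tumors, and 5 and 0 in recurrent tumors, where the background was 8.27% upward and 5.13% downward in primary and 8.32% and 4.67% in recurrent tumors. Igfbp3, Lox and Cxcr4 were called upward in both, but none of them was above background in SCC-7 cells. They were kept only through the tumors, so their folds are bounds and their place in these counts says little. Igfbp3, an IGF binding protein, was at least 8.76-fold and at least 13.5-fold higher. Lox, the collagen crosslinking enzyme, was at least 2.13-fold and at least 3.32-fold higher, and Cxcr4, a chemokine receptor, at least 3.2-fold and at least 2.78-fold. Angptl4, a lipase inhibitor, was higher by 2.2 ± 0.7 SE and 2.42 ± 0.7 SE (adjusted p = 0.0491 and 0.0343). Hmox1, heme oxygenase, was called higher in recurrent tumors (2.33 ± 0.55 SE, adjusted p = 0.0134) and Gys1, glycogen synthase, lower in primary tumors (-1.34 ± 0.39 SE, adjusted p = 0.0344). The adjusted p of Igfbp3 was 0.0022 and 0.00077, that of Lox 0.00972 and 0.00261, and that of Cxcr4 0.00323 and 0.00496. Of 11 genes of gluconeogenesis and the pentose phosphate path 6 were measured. Fbp1, the fructose bisphosphatase, was also not above background in the cells, and was at least 1.2-fold higher in recurrent tumors (limma, adjusted p = 0.023). Fibroblast and endothelial markers, 6.98 to 8.02 and 7.08 to 8.33 in the tumors, were above the 5.4 to 5.44 and 4.84 to 4.91 of SCC-7 cells, and their part in these genes was not tested.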

How the data were processed

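Biotin-labelled RNA was measured on Illumina WG-6 v2 mouse arrays. Deposited by the authors were mean bead intensity values per probe, neither background-corrected nor normalized, with a detection p-value that was not used here, and a table of normalized intensity whose method is not given in the sources used here. Background was modelled by normexp on 943 negative controls (offset 16), followed by quantile normalization and log2 (limma 3.58.1, R 4.3.3). Of 45135 probes, 18454 were kept. Grouping followed the labels. limma was fitted over all kept probes with Benjamini-Hochberg adjustment. Recurrent and primary tumors were compared with the animal as a block, because each pair of tumors came from a single animal of the study. Deviations from the group means correlated within pairs at -0.37, 0.03, 0.34, 0.36 and 0.17 across probes, and 0 recurrences had their own primary tumor as best match. Comparisons with SCC-7 cells used 1 fit of 3 groups. Named were the 10 members with the largest mean ratio, those at least 2-fold in at least 3 pairs, those called against SCC-7 cells, and always Hif1a, Slc2a1, Pgk1, Ldha, Vegfa and Car9, and up to 4 called genes per other list and direction. Members and lists were chosen with earlier results of these data known. Alternatives covered background, normalization, filters, probes, blocks, left-out arrays and the t-test. The fits were tested on simulated data. Slides are not given, so no slide effect was fitted, and the small number of arrays limits the precision. Figures were drawn with matplotlib 3.10.9.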

Additional observations from a re-analysis of the deposited data

Results flagged for a closer look

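Of 62 groups of 5 tumors, 1 for each of 31 genes in primary and in recurrent tumors, 4 (6.45%) held a tumor whose gap to its nearest neighbour exceeded Dixon's critical share of the range, 0.71, where chance gives about 1 in 20. Primary tumor 3 was apart in 3 of them. It was low for Pdk1 at 6.7 (next 8.25) and for Egln3 at 6.18 (next 8.58), and high for Epas1 at 6.43 (next 5.03). Epas1 was above background in no other primary tumor, and its probe was kept only through primary tumor 3 and recurrent tumor 2. Its flag therefore says little. Primary tumor 4 was high for Car9 at 7.04 (next 5.88).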

How the results depend on the processing

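The count of members called between recurrent and primary tumors stayed at 0 under all alternatives of fit, including no replicate block and each pair left out, and was 1 by the rule of at least 2-fold in at least 3 pairs. Against SCC-7 cells, 10 probes were called in primary tumors when every kept probe was counted in place of 6 genes. Counts ran from 0 to 8 in primary and from 0 to 5 in recurrent tumors with 1 array left out. They were 2 and 1 without the first SCC-7 array and 0 and 0 without the second. The animal as a random replicate block left them at 6 and 4. No recurrence correlated best with its own primary tumor. Mean ratios of recurrent over primary tumor changed sign for Epas1 without pair 3 (0.07, range over left-out pairs -0.57 to 0.07), for Car12 with median scaling (0.01) and without pair 1 (1.83, range -0.56 to 1.83), for Slc2a1 without pair 1 (-0.01) or pair 4 (range -0.09 to 0.44) and for Vegfa without pair 5 (range -0.04 to 0.25), none of them called. Against SCC-7 cells, uncalled differences of recurrent tumors changed sign for Hif1a with median scaling (0.21) and for Pgk1 without recurrent tumor 4 (-0.07) or 5 (-0.1, range over left-out arrays -0.1 to 0.17) and with its second probe (-0.13). The cause was not tested. Eno2 and Ndrg1 lost their primary calls with median scaling (adjusted p = 0.0938 and 0.0638 from limma), and Ndrg1 its recurrent call (adjusted p = 0.126). Genes near background on SCC-7 arrays allow only bounds.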
